A study of Mus musculus with 4 samples.

Results

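Ltf, Camp, Ngp, Lcn2, Chil3, Mmp8, Mmp9, Retnlg, Olfm4 and Ly6g encode proteins of the secondary and tertiary granules of mouse neutrophils, or proteins made alongside them. These 10 genes, chosen by name from the 32285 genes counted, were followed through the neutrophil stages of the bone marrow, through the other blood lineages and across 3 drug treatments. As shares of all RNA counted in a group of cells, their levels peaked at different points of maturation. Chil3 and Camp were highest in the earliest of 4 groups of maturing cells, Ngp, Ltf, Lcn2 and Ly6g in the second, Mmp8, Mmp9 and Olfm4 in the third, and Retnlg in the last. The RNA counted per cell went down along these groups, so an order by counts per cell can differ and was not worked out. With all 6 mice and a filter on low counts, no difference between treatments passed the test for any of the 10 genes. Without that filter some did. Leaving out 1 mouse also brought calls, and only that of Chil3 in progenitors between tamoxifen+rapamycin and late rapamycin appeared whichever mouse was left out. These fits share most of their mice, so they are not independent of each other, and each leaves 1 treatment with 1 mouse. With all 6 mice this Chil3 difference had an edgeR adjusted p of 0.515.

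Neutrophils fill their granules in a fixed order as they mature. Primary granules with Elane and Mpo form first in proliferating progenitors, secondary (specific) granules with lactoferrin and cathelicidin form next in myelocytes, and tertiary (gelatinase) granules with matrix metalloproteinase 9 form last, shortly before the nucleus becomes segmented. The contents of a granule largely follow from which genes are transcribed while it forms. The transcription factor C/EBP epsilon, encoded by Cebpe, is required for the secondary granule genes.

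Bone marrow came from 6 female mice, 6 weeks old, with the genotype Tppp3CreER LSLTdTomato. In these mice tamoxifen activates a Cre recombinase under the control of Tppp3, which then turns on a tdTomato reporter. In 2 mice tamoxifen+rapamycin was injected on postnatal days 0 and 3. Another 2 received rapamycin on postnatal day 30 and no tamoxifen, and they are called late rapamycin here. The last 2 received tamoxifen on postnatal days 0 and 3. Rapamycin inhibits the growth-promoting kinase complex mTORC1. All treatments involved a drug, and no untreated mice were analysed. The labels describe the cells as Lin-Sca+Kit+, Lin-Sca-Kit+ and whole bone marrow without giving the mix for each mouse, so the share of any cell type depends on that mix. On each of 2 days, the cells of 3 mice, 1 from each treatment, received a different hashtag antibody per mouse and shared 1 droplet run. The mouse was the replicate, with n = 2 per treatment, and mouse 1 and mouse 2 of a treatment are those of day 1 and day 2.

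After filtering, 34656 cells remained, 5531 to 6462 per mouse, with 22618005 to 37581789 UMIs (unique molecular identifiers, each counting 1 captured RNA molecule) per mouse. The days shared 126 cell barcodes. The hashtag table assigns hashtags 1 and 4 to tamoxifen+rapamycin, 2 and 5 to tamoxifen, and 3 and 6 to mice named Ctrl, which were read as the late rapamycin mice. The sample labels number the mice differently. If those numbers were hashtag numbers, both tamoxifen treatments would be exchanged. Each difference between tamoxifen+rapamycin and tamoxifen would then change its sign, each value for tamoxifen+rapamycin against late rapamycin would be one for tamoxifen against late rapamycin, and the reverse.

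Stages were named from marker genes that did not include the 10 genes, which were also left out of the clustering. Neutrophil progenitor-like cells numbered 1584, immature neutrophil-like cells 1433 and mature neutrophil-like cells 2142. The markers followed that order. Median levels over mice of Elane, a primary granule protease, were 11875 CPM (UMIs scaled to a class total of 1e+06) in progenitors, 266 CPM in immature cells and 28.9 CPM in mature cells. Cebpe stood at 177, 548 and 139 CPM in the same order, and Cxcr2, the chemokine receptor of mature neutrophils, at 8.65, 129 and 963 CPM. Mki67, a proliferation marker, stood at 444, 1033 and 18.6 CPM and was highest in the immature class. In mature cells Il1b, an inflammatory cytokine, reached a median of 182 CPM.

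Late rapamycin mouse 1 stood apart from the other 5 mice. Its cells named immature neutrophil-like formed a cluster of their own, cluster 10, in which 1530 of 1537 cells came from this mouse. All 19 immature markers were raised there, but so were 13 of 17 mature markers, against 9 of 17 in the immature cluster of the other mice. Only 6 cells of late rapamycin mouse 1 fell in the immature cluster of the other mice and 2 in the mature cluster. Its marrow held 751 progenitor-like cells of 6462, and a monocyte-like cluster of 330 cells, cluster 19, was also almost entirely its own (99.7%). Leading genes of cluster 10 were Lipg, Prok2, Cstdc5, Ggt1 and Asprv1. Stage values below are therefore given for the other 5 mice, with cluster 10 beside them, and results between treatments are given with and without this mouse.

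At the progenitor-like stage the 10 genes together took 0.0196% to 0.321% of the UMIs of a mouse. They took 14.3% to 14.6% of the UMIs of immature cells in the 5 mice, 7.31% to 9.92% in mature cells, and 9.37% in cluster 10. On the log2 scale, after adding 1 CPM, immature minus progenitor was 6.83 ± 2.10 for Camp (SD, n = 5 mice) and between 5.76 and 10.43 for the 9 others. Camp alone of the 10 was above the range of HSC-like (hematopoietic stem cell-like) cells in the progenitors of every mouse. The differences of the others also depend on background RNA and on the 1 CPM added, so they are not ranked. The later step from immature to mature cells then separated the genes, as the plot of levels by stage shows. Stages are groups of cells taken from the same mice and defined by expression, so these differences are descriptions and carry no test.

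Where the immature class ended and the mature class began depended on the clustering. Of the cells of the 5 mice, 2140 were mature and 1427 immature with 15 neighbours per cell, but 1000 and 2575 with 30 neighbours, a setting added after the data were seen. A finer clustering, also added after the data were seen, gave 4 groups of such cells shared by the 5 mice, called steps 1 to 4 here and ordered by Cxcr2 (58.2, 186, 684 and 1599 CPM). They held 474, 996, 1143 and 948 cells. Mki67 was high at step 1 (1777 CPM), lower at step 2 (166 CPM) and low at steps 3 and 4 (12.7 and 13.5 CPM), while Il1b reached 524 CPM at step 4 and stood at no more than 4.24 CPM before it. All of step 1 and 95.2% of step 2 belonged to the immature class, and of steps 3 and 4 none.

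The 10 genes together took 13.5%, 15.5%, 10.3% and 4.29% of the UMIs at steps 1 to 4. Median UMIs per cell went down along the steps, with 5034, 2500.5, 1810 and 1269.5, the last close to the 1000 that a cell needed to be kept. The levels by step given below are CPM, shares of these falling totals. A gene with its highest CPM at step 2 can still have had more UMIs per cell at step 1, which was not worked out. Cells of day 1 made up 35.9%, 41.5%, 42.4% and 18.9% of the steps, so step 4 came mostly from day 2.

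**Figure D1:**
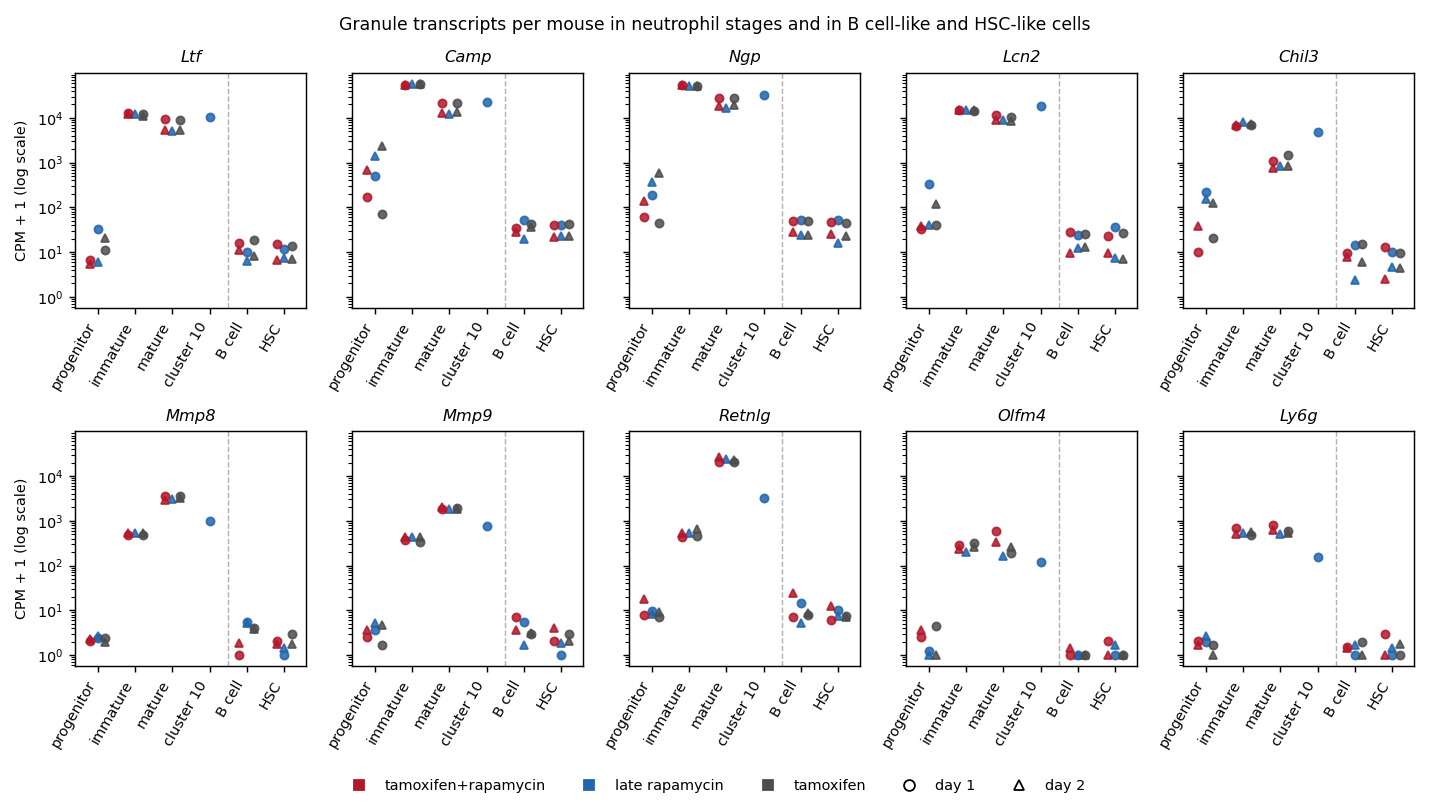
Level of each gene (CPM + 1 on a log axis) in neutrophil progenitor-like, immature and mature cells, in cluster 10, and in B cell-like and HSC-like cells, with 1 point per mouse. Camp had 71.8 to 2355 CPM in progenitor-like, 54018 to 57437 CPM in immature and 12106 to 21378 CPM in mature cells, while Retnlg had 6.04 to 16.5, 423 to 658 and 20636 to 26038 CPM.

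Among the proteins of secondary granules, Camp encodes the precursor of the antimicrobial peptide cathelicidin. Mature cells had 21378 and 12543 CPM of Camp in the tamoxifen+rapamycin mice, 12106 CPM in late rapamycin mouse 2, and 21078 and 13633 CPM in the tamoxifen mice. Immature cells had 54052 and 54018 CPM in the tamoxifen+rapamycin mice, 56275 CPM in late rapamycin mouse 2, and 57174 and 57437 CPM in the tamoxifen mice. Camp was thus lower in mature cells of every mouse, with the 2 mice of day 1 above the 3 of day 2, and uniform across mice at the immature stage. Mature minus immature was −1.84 ± 0.41 on the log2 scale (SD, n = 5 mice), a 3.57-fold lower level. Along the steps the medians were 57576, 53811, 22393 and 964 CPM, and step 1 was highest in all 5 mice. Within step 3 the same mice had 24230 and 20600 CPM, 21772 CPM, and 23977 and 22393 CPM, closer between days than in the mature class as a whole.

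Ngp, neutrophilic granule protein, is a relative of cathelicidin. Its mature cells had 28282 and 18847 CPM in the tamoxifen+rapamycin mice, 16402 CPM in late rapamycin mouse 2, and 27873 and 19037 CPM in the tamoxifen mice. In immature cells the values were 53526 and 53082 CPM, 52006 CPM, and 50274 and 52651 CPM for the same mice in the same order. Again the mature cells of day 1 were higher than those of day 2, and no mature value reached an immature one. The difference was −1.28 ± 0.37 (SD, n = 5 mice), or 2.43-fold lower. Step medians were 47797, 57488, 30636 and 2345 CPM, with the peak in CPM at step 2 in all 5 mice, 1 step after that of Camp.

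Ltf encodes lactoferrin, an iron-binding protein and the classical marker of secondary granules. It had 9281 and 5449 CPM in mature cells of the tamoxifen+rapamycin mice, 5170 CPM in late rapamycin mouse 2, and 8867 and 5258 CPM in the tamoxifen mice. The immature cells of these mice had 12691 and 11977 CPM, 12206 CPM, and 12101 and 11206 CPM in the same order. In every mouse the mature level was lower, by −0.87 ± 0.39 on the log2 scale (SD, n = 5 mice) or 1.83-fold. At steps 1 to 4 Ltf stood at 8959, 15472, 9622 and 114 CPM, so that the level left at the last step was low, from 73.4 to 754 CPM in the 5 mice.

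Lcn2 encodes lipocalin 2, which binds bacterial siderophores. Levels in mature cells were 11720 and 8767 CPM in the tamoxifen+rapamycin mice, 8785 CPM in late rapamycin mouse 2, and 10620 and 8528 CPM in the tamoxifen mice. In immature cells of those mice the levels were 15355 and 15053 CPM, 15274 CPM, and 13991 and 15062 CPM in the same order. The difference of −0.64 ± 0.22 (SD, n = 5 mice) was 1.56-fold and negative in all 5 mice. Lcn2 peaked at step 2 (medians 11870, 17689, 12091 and 4362 CPM) but kept more of its level at step 4 than Ltf, and 92.3% of mature cells still held an Lcn2 UMI after each cell was thinned to 1000 UMIs.

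Chil3 encodes the chitinase-like protein Ym1, which neutrophil precursors and macrophages make. Its mature cells had 1081 and 755 CPM in the tamoxifen+rapamycin mice, 861 CPM in late rapamycin mouse 2, and 1467 and 854 CPM in the tamoxifen mice. Immature cells had 6526 and 6970 CPM, 8176 CPM, and 6959 and 7433 CPM in the same order of mice. Chil3 had the largest negative difference of the 10 genes, −2.88 ± 0.44 (SD, n = 5 mice) or 7.37-fold. It was highest at step 1 in all 5 mice and stood at medians of 8359, 5919, 1437 and 27.5 CPM along the steps. After thinning, 31.2% of mature cells and 98.5% of immature cells held a Chil3 UMI, and such cells held 2.43 UMIs on average in mature and 6.93 in immature cells.

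Mmp8, Mmp9 and Retnlg ran the other way. Mmp8 encodes a neutrophil collagenase stored in secondary granules, and Mmp9 encodes gelatinase B, the enzyme that gives the gelatinase granule its name. Mature cells had 3544 and 2854 CPM of Mmp8 in the tamoxifen+rapamycin mice, 3086 CPM in late rapamycin mouse 2, and 3617 and 3240 CPM in the tamoxifen mice. In immature cells the same mice had 468 and 522 CPM, 524 CPM, and 485 and 543 CPM. Mmp8 was higher in mature cells in 5 of 5 mice, by 2.68 ± 0.21 on the log2 scale (SD), or 6.40-fold. At step 1, where Camp was highest, Mmp8 was nearly missing (median 3.46 CPM). It then stood at 1077, 3839 and 2302 CPM at steps 2 to 4.

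Mmp9 had 1869 and 2014 CPM in mature cells of the tamoxifen+rapamycin mice, 1806 CPM in late rapamycin mouse 2, and 1950 and 1838 CPM in the tamoxifen mice. Its immature values were 362 and 427 CPM, 429 CPM, and 328 and 434 CPM in the same order, and the stages did not overlap. The difference was 2.26 ± 0.21 (SD, n = 5 mice), or 4.80-fold. Step medians were 58.0, 779, 1944 and 1834 CPM, with step 3 highest in 4 of 5 mice. Although Mmp8 is counted with secondary granules and Mmp9 with tertiary ones, both were low at step 1 and highest by their medians at step 3.

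Retnlg encodes a resistin-like protein of myeloid cells and was the gene most concentrated in mature cells. Mature cells had 20649 and 26038 CPM in the tamoxifen+rapamycin mice, 24178 CPM in late rapamycin mouse 2, and 20636 and 23270 CPM in the tamoxifen mice. Immature cells had 423 and 528 CPM, 523 CPM, and 451 and 658 CPM in the same order. The level in mature cells was 44.7-fold higher (log2 difference 5.48 ± 0.20, SD, n = 5 mice), the largest positive difference of the 10. Along the steps Retnlg stood at 53.4, 1032, 19288 and 31200 CPM. It was the only 1 of the 10 genes with its highest level at step 4 in all 5 mice.

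**Figure D2:**
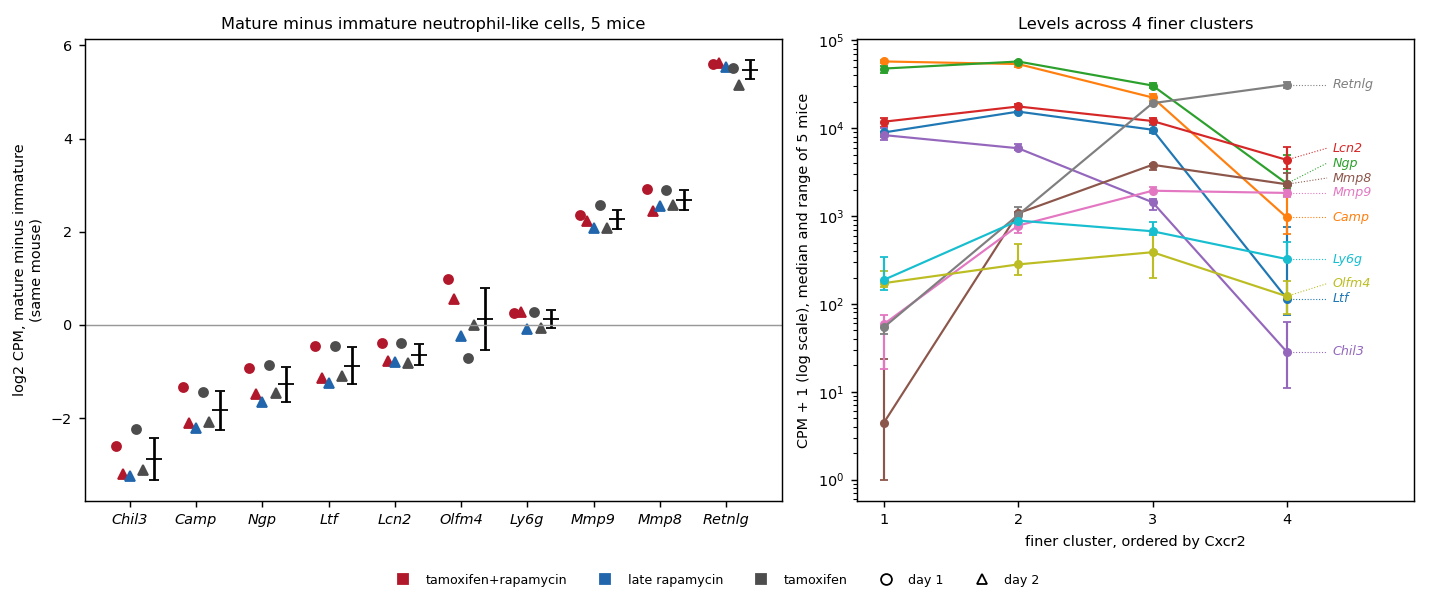
Left, mature minus immature level of each gene as the difference of log2(CPM + 1), with 1 point per mouse for 5 mice and the mean ± SD, from Chil3 (mean −2.88) to Retnlg (mean 5.48). Right, level (CPM + 1 on a log axis) at the 4 steps ordered by Cxcr2, as the median and range of 5 mice. Chil3 goes down from 8359 to 27.5 CPM and Retnlg goes up from 53.4 to 31200 CPM along the steps.

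Olfm4, olfactomedin 4, is a secondary granule protein that only a subset of neutrophils is known to carry. It had 577 and 341 CPM in mature cells of the tamoxifen+rapamycin mice, 166 CPM in late rapamycin mouse 2, and 194 and 258 CPM in the tamoxifen mice. Its immature values were 291 and 231 CPM, 196 CPM, and 318 and 257 CPM in the same order, so the stages overlapped. Mature cells were higher in 3 of 5 mice, and the mean difference of 0.12 ± 0.67 (SD, n = 5 mice) was smaller than its SD. A UMI of Olfm4 was found in 8.64% of thinned mature cells and in 9.28% of thinned immature cells, and such cells held 3.04 and 3.05 UMIs on average. Step medians were 172, 281, 387 and 121 CPM, with step 3 highest in 4 of 5 mice.

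Ly6g, the surface protein recognised by the neutrophil antibody 1A8, is not a granule protein but appears at the same stages. Mature cells had 801 and 626 CPM in the tamoxifen+rapamycin mice, 497 CPM in late rapamycin mouse 2, and 586 and 525 CPM in the tamoxifen mice. Immature cells had 676 and 517 CPM, 526 CPM, and 481 and 549 CPM in the same order. The groups overlapped, with a difference of 0.13 ± 0.19 (SD, n = 5 mice) that was positive in 3 of 5. Ly6g was seen in 38.7% of thinned mature cells and 41.5% of thinned immature cells, with 1.45 and 1.60 UMIs in each such cell. Olfm4 was seen in fewer cells with more UMIs in each. Ly6g was highest at step 2 in all 5 mice (medians 187, 888, 671 and 323 CPM).

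The sizes of these differences moved with the border between the classes, while 8 of the 10 genes kept their direction. With 30 neighbours mature minus immature was −7.21 for Chil3, −5.77 for Ltf, −5.25 for Camp, −3.86 for Ngp and −1.63 for Lcn2. In the same clustering it was 2.39 for Retnlg, 1.08 for Mmp9 and 0.83 for Mmp8. With suspected doublets kept, Ltf stood at −1.92, Camp at −2.61 and Retnlg at 3.37. Olfm4 and Ly6g turned negative in both, with −1.07 and −0.72 at 30 neighbours and −0.64 and −0.62 with doublets kept, so no direction is given for them.

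Reads of close paralogs can be split between genes. Chil4, which lies beside Chil3, reached at most 1.93 CPM in any mouse and stage, and Retnla was listed at 0 at all 3 stages. Ly6c1 reached at most 1.4831 CPM at these stages, whereas Ly6c2, a surface protein gene of monocytes and neutrophils, had medians of 1114, 701 and 685 CPM in progenitors, immature and mature cells. Ly6c2 was highest in monocyte-like cells (1744 CPM), in which Ly6g stood at 3.09 CPM.

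The 10 genes lie on 6 chromosomes, in GRCm38 coordinates. Camp (chr9:109847379-109849617), Ngp (chr9:110419747-110423012) and Ltf (chr9:111019271-111042767) lie within one region of chromosome 9, and Mmp8 lies elsewhere on it (chr9:7558456-7568485). Lcn2 (chr2:32384633-32388252) and Mmp9 (chr2:164940780-164955850) share chromosome 2. The others are Chil3 (chr3:106147554-106167564), Olfm4 (chr14:79984081-80023139), Ly6g (chr15:75155240-75159126) and Retnlg (chr16:48872621-48874496). The promoters of Camp, Ngp and Ltf on chromosome 9, which were low at step 4, and of Retnlg, which was highest there, are shown as examples. Chil3 and Mmp8, whose promoters are not shown, differed more between mature and immature cells than Ngp and Ltf. Each runs from 250 bases before to 50 bases after the gene start, 5′ to 3′ on the gene's own strand, from RefSeq (GRCm38.p6). The RefSeq starts differ from those of the gene coordinates above, which come from GENCODE, and positions below count from the RefSeq start. Capitals mark the letters TTGCNNAA on either strand, the core of the C/EBP motif.
Camp (chr9:109849407-109849706, minus strand): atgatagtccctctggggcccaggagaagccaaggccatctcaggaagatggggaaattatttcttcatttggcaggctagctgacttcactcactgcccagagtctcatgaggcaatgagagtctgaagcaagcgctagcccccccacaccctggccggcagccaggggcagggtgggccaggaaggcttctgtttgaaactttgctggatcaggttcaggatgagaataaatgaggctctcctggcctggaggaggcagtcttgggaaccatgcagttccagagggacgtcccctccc
Ngp (chr9:110419558-110419857, plus strand): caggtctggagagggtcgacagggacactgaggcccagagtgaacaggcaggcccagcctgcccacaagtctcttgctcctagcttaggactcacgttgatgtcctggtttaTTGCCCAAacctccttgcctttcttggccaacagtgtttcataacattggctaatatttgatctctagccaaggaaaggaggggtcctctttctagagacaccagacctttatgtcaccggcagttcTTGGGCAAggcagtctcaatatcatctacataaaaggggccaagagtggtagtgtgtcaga
Ltf (chr9:111019042-111019341, plus strand): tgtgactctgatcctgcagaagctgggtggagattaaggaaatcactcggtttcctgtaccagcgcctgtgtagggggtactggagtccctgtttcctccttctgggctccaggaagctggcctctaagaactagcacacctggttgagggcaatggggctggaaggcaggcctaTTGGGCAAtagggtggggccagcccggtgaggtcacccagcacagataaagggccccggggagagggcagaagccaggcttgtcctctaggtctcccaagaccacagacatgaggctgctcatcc
Retnlg (chr16:48872358-48872657, plus strand): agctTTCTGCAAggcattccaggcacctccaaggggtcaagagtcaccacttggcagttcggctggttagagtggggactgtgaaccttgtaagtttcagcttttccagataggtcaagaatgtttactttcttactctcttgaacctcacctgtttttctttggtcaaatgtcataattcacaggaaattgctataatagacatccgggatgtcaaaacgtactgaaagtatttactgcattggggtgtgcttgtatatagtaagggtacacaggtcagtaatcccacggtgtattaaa

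Windows were given for 9 of the 10 genes, all but Mmp9, and 6 of the 9 had a match. Ngp had 2 matches, starting at positions −138 and −11 relative to the gene start, Ltf had 1 at −75, and Retnlg had 1 at −246, while Camp, Chil3 and Olfm4 had none. Matches in the other windows started at −216 in Lcn2, −232 in 1 of 2 windows of Ly6g and −19 in Mmp8. Of all 32851 promoter windows 10.8% held a match and 0.773% held 2 or more, with no correction for base composition. Genes with a match were found on both sides of the stage pattern. A match says only that these letters are present.

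Cluster 10 held nearly all cells of late rapamycin mouse 1 that were named immature, although mature markers were raised in it too. Its 10-gene profile differed from the immature cells of the other 5 mice. Camp had 22867 CPM, Ngp 31984 CPM and Ltf 10457 CPM, all below the lowest of the 5 other mice. Chil3 (4707 CPM), Olfm4 (120 CPM) and Ly6g (157 CPM) were below the lowest too. Lcn2 (18383 CPM), Retnlg (3256 CPM), Mmp9 (752 CPM) and Mmp8 (1009 CPM) were above the highest of them. Camp and Ngp of cluster 10 were close to the medians of step 3 in the other mice (22393 and 30636 CPM), whereas Retnlg and Chil3 lay between steps 2 and 3.

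For its maturation markers, cluster 10 had Cxcr2 at 598 CPM, between the medians of mature (963 CPM) and immature cells (129 CPM), but Mki67 at 899 CPM, near the immature median, and Il1b at only 8.69 CPM. Elane stood at 788 CPM, above the 233 to 504 CPM of immature cells. Fcnb, an immature marker, stood at 389 CPM, between the medians of mature (4.12 CPM) and immature cells (831 CPM). Top2a, a proliferation marker, stood at 522 CPM, against medians of 11.9 CPM in mature and 629 CPM in immature cells. Stfa1, a cysteine protease inhibitor gene of mature neutrophils, stood at 149 CPM in cluster 10, above the 52.1 to 117 CPM of mature cells and the 4.12 to 17.8 CPM of immature cells. Lrg1, the gene of a glycoprotein stored in neutrophil granules, stood at 1418 CPM against a median of 407 CPM in immature cells. Cells of cluster 10 had a median of 3762.5 UMIs, against 2252 to 3427 UMIs in immature cells of the other mice. This is 1 mouse, so what sets it apart cannot be told apart from its treatment.

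The make-up of the 10 genes' UMIs gave each stage a profile of its own. Camp took 38.7% and 38.5% in immature cells on days 1 and 2 and Ngp 36.2% on both. Retnlg took 21.0% and 32.3% in mature cells, against 0.304% and 0.392% in immature cells. For each Ngp UMI there were 2.62 and 4.19 Camp UMIs in progenitor-like cells on the 2 days, 1.07 on both days in immature cells and 0.754 and 0.710 in mature cells. In cluster 10 the ratio was 0.715. In the 17 sums of another cell type and day with at least 300 UMIs of the 10 genes, a minimum set after the values were seen, it lay between 0.705 and 1.17. In the smaller sums it lay between 0.667 and 1.59, and the highest came from the 236 UMIs of T and NK cell-like cells on day 2.

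Camp thus had more UMIs per Ngp UMI in progenitor-like cells of either day than in any other of these sums. It had 168 and 696 CPM in progenitor-like cells of the tamoxifen+rapamycin mice, 499 and 1422 CPM in the late rapamycin mice, and 71.8 and 2355 CPM in the tamoxifen mice. HSC-like cells of the same mice, which should lack the gene, had 38.4, 21.0, 39.9, 21.5, 40.4 and 21.8 CPM in the same order, and every progenitor value was above its stem cell value. After thinning, 10.7% of progenitor-like cells held a Camp UMI, with 6.55 UMIs in each such cell on average, against 2.87% of HSC-like cells with 1.05. Median depths before thinning were 7370 to 11313 UMIs per progenitor-like cell and 2206.5 to 4074 per HSC-like cell. The level moved with the upper border of the progenitor class and lay between 65.1 and 1482 CPM with 30 neighbours. In late rapamycin mouse 1 it was 114 CPM at resolution 2, against 499 CPM at resolution 1. By mouse, Camp UMIs per Ngp UMI in progenitor-like cells ran from 1.67 to 4.94 with 15 neighbours, from 1.59 to 6.55 with 30 and from 1.246 to 3.58 with suspected doublets kept.

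Lcn2 and Chil3 in progenitors were highest in late rapamycin mouse 1. It had 332 CPM of Lcn2, against 31.8 to 119 CPM in the 5 other mice, and 221 CPM of Chil3, against 9.003 to 152 CPM. These levels moved with the class border too. At resolution 2 this mouse had 229 CPM of Lcn2 and 110 CPM of Chil3. With 30 neighbours Chil3 of tamoxifen+rapamycin mouse 2 was 15.1 CPM, against 38.1 CPM with 15, and with doublets kept that of mouse 1 was 31.4 CPM. Lcn2 and Chil3 of late rapamycin mouse 1 stayed above those of the other mice measured in each of these settings. At resolution 2 only the mice of day 1 had enough progenitor-like cells to be measured. Its Ltf was 32.7 CPM, against 4.44 to 19.4 CPM in the others, and the HSC-like range was 5.72 to 14.1 CPM. Mmp8 (0.924 to 1.64 CPM), Mmp9 (0.671 to 4.09 CPM), Retnlg (6.04 to 16.5 CPM), Olfm4 (0 to 3.36 CPM) and Ly6g (0 to 1.64 CPM) were low in the progenitors of all 6 mice. In HSC-like cells the highest values of these genes were 1.96, 3.05, 11.4, 1.01 and 2.02 CPM in the same order.

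**Figure D3:**
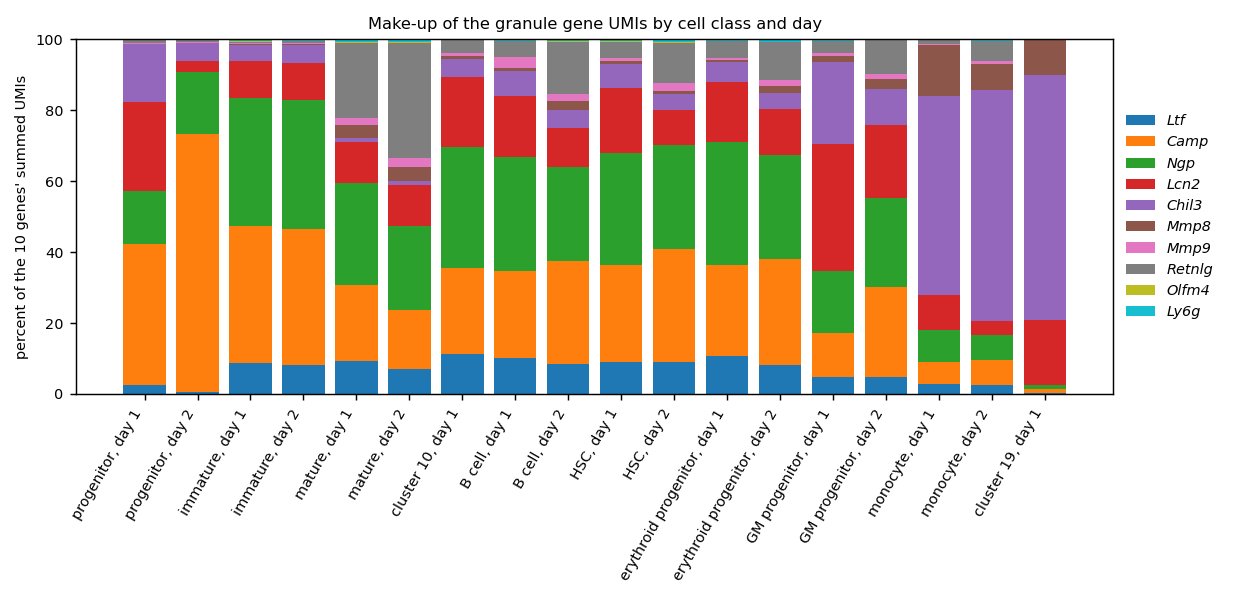
Share of each gene among the UMIs of the 10 genes (percent, stacked to 100) for neutrophil stages and other classes, by day. Retnlg takes 21.0% and 32.3% in mature cells, Camp 39.6% and 72.8% in progenitor-like cells and Chil3 56.2% and 65.1% in monocyte-like cells.

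In most lineages that do not make granule proteins, the 10 genes were found at a low level. Their summed level was 145 CPM on day 1 and 67.4 CPM on day 2 in HSC-like cells, 151 and 94.0 CPM in B cell-like cells, and 156 and 52.0 CPM in erythroid progenitor-like cells. All 3 classes were higher on day 1. The 3 mice of a day shared 1 droplet run and so its free RNA. The share of Camp among the 10 genes in HSC-like cells was 27.4% and 31.8%, and that of Ngp 31.7% and 29.3%. Values of this size in any class are read here as background and not as expression.

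For Camp in HSC-like cells, exact 95% Poisson intervals, which cover counting error only, ran from 27.2 to 52.7 CPM in tamoxifen+rapamycin mouse 1 and from 15.8 to 27.3 CPM in mouse 2. They ran from 25.0 to 60.4 and from 17.5 to 26.1 CPM in the late rapamycin mice, and from 31.0 to 51.8 and from 17.3 to 27.1 CPM in the tamoxifen mice. The point values were higher on day 1 in each treatment, and the intervals of the days were separate in tamoxifen alone. The 3 mice of a day overlapped. Olfm4 and Ly6g were the least seen, each in 0.0494% of thinned HSC-like cells.

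In T and NK cell-like cells, tamoxifen+rapamycin mouse 1 had 32.9 CPM of Camp and 52.65 CPM of Ngp, and late rapamycin mouse 2 had 18.3 CPM of each. Tamoxifen mouse 2 had 485 CPM of Camp and 286 CPM of Ngp, from 81 cells. The 3 other mice had fewer than 50 such cells. Dendritic cell-like cells of day 1 had a summed level of 691 CPM, against 98.5 CPM on day 2. The source of these UMIs was not tested.

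Chil3 and Mmp8 were also found in monocytes. In monocyte-like cells Chil3 had 487 and 416 CPM in the tamoxifen+rapamycin mice, 1071 CPM in late rapamycin mouse 2, and 288 and 1076 CPM in the tamoxifen mice. A Chil3 UMI was present in 29.0% of thinned monocyte-like cells, against 0.544% of HSC-like cells. Mmp8 had 96.8 and 72.7 CPM, 111 CPM, and 90.6 and 99.8 CPM in the same order, against 0 to 1.96 CPM in HSC-like cells. These 2 genes exceeded the background in all 5 mice. Lcn2 (40.2 to 66.6 CPM) was also above its HSC-like range (5.91 to 36.3 CPM) in all 5, by a smaller margin. Chil3 alone made up 56.2% and 65.1% of the 10 genes' UMIs in monocyte-like cells, against 6.74% and 4.59% in HSC-like cells. Monocyte-like cells of tamoxifen mouse 2 also held 187 CPM of Camp, and those of late rapamycin mouse 2 held 80.3 CPM.

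In cluster 19, the monocyte-like cells of late rapamycin mouse 1, Chil3 reached 2490 CPM, Lcn2 664 CPM and Mmp8 350 CPM, while Camp and Ngp stood at the background level with 42.3 and 36.02 CPM. The granulocyte-monocyte progenitor-like cells of this mouse had 125 CPM of Lcn2 and 88.4 CPM of Chil3. In those of the 5 other mice the ranges were 13.9 to 26.3 CPM and 3.28 to 12.0 CPM. Lcn2 of monocyte-like cells in the 5 other mice was 40.2 to 66.6 CPM. Lcn2 and Chil3 were thus above the range of the other mice in 3 myeloid classes of late rapamycin mouse 1. This did not hold in its cluster 10. There Lcn2 was above the immature cells of the other mice, but Chil3 (4707 CPM) was below them (6526 to 8176 CPM).

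Other genes followed the 10 closely. Over 86 sums of a class and mouse with at least 50 cells, the log2 level of the summed 10 genes had its highest Pearson r with S100a8 (0.986), S100a9 (0.985), F730016J06Rik (0.960) and Gm38575 (0.959). S100a8 and S100a9 encode the subunits of calprotectin. The next were Cd177 (0.958), a neutrophil surface glycoprotein gene, C5ar1 (0.956), the receptor of the complement fragment C5a, Gm3942 (0.955), Chil1 (0.944), a chitinase-like relative of Chil3, Itgb2l (0.942) and Pilra (0.941). The sums share libraries, depth and background RNA, so these values describe likeness and carry no p. Within the stages the genes differed: C5ar1 had a median of 520 CPM in mature cells and 175 CPM in immature cells, whereas S100a8 had 77668 CPM in mature cells and 89103 CPM in immature cells.

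Treatments were compared in UMIs summed per mouse, with edgeR's quasi-likelihood test, day as a block and Benjamini-Hochberg adjustment over all genes at a threshold of 0.05. In the 3 neutrophil stages pooled, none of the 10 genes was called in any comparison. For tamoxifen+rapamycin against tamoxifen 0.0% of 10480 genes were called, for late rapamycin against tamoxifen 0.00954%, and for tamoxifen+rapamycin against late rapamycin 0.0%. Unadjusted p under 0.05 was found for 1, 1 and 3 of the 10 genes and for 222, 522 and 625 of all genes in these comparisons. DESeq2 called 0, 2 and 0 genes, none of them a granule gene of the 10. The median log2 difference of the 10 genes was −0.19, −0.20 and −0.05, against 0.01, 0.01 and −0.01 for all genes.

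Chil3 and Olfm4 had the smallest p in the pooled stages. Chil3 stood at 1690 and 2369 CPM in the tamoxifen+rapamycin mice, 2235 and 3283 CPM in the late rapamycin mice, and 2126 and 3183 CPM in the tamoxifen mice. Tamoxifen+rapamycin was lowest on each day, with a log2 difference of −0.42 ± 0.18 from tamoxifen (SE, edgeR adjusted p = 1) and −0.55 ± 0.18 from late rapamycin (adjusted p = 0.782). Olfm4 stood at 171 and 144 CPM, 53.7 and 119 CPM, and 125 and 164 CPM in the same order of mice. Both late rapamycin values were the lowest, and tamoxifen+rapamycin minus late rapamycin was 0.87 ± 0.29 (SE, edgeR adjusted p = 0.782).

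Leaving out 1 mouse brought calls in the pooled stages. Without late rapamycin mouse 1, Chil3 was called lower in tamoxifen+rapamycin against tamoxifen (−0.42 ± 0.10, SE, edgeR adjusted p = 0.00732), where 0.676% of all genes were called lower. With all mice the estimate was the same and its SE 0.18. Against late rapamycin mouse 2 alone, Chil3 (−0.50 ± 0.13, edgeR adjusted p = 0.0140) and Mmp8 (−0.48 ± 0.13, adjusted p = 0.0252) were called lower in tamoxifen+rapamycin, where 1.35% of all genes were. Without tamoxifen+rapamycin mouse 2, Olfm4 (1.37 ± 0.32) and Ly6g (1.499 ± 0.38) were called higher in mouse 1 than in late rapamycin (edgeR adjusted p = 0.0232 and 0.0444), where 0.406% of all genes were. Pooled stages also differ by their mix. Progenitor-like cells, which have little of these genes, made up 4.39% and 2.68% of cells in the tamoxifen+rapamycin mice, 11.6% and 2.19% in the late rapamycin mice and 3.52% and 1.93% in the tamoxifen mice, and their UMIs enter the pooled total.

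Cluster 10 was counted as immature for late rapamycin mouse 1, although mature markers were raised in it too. Within immature cells none of the 10 genes was called either, and 0.0%, 0.0% and 0.0% of 7536 genes were in the 3 comparisons. Unadjusted p was under 0.05 for 0, 1 and 3 of the 10 genes and for 143, 454 and 415 of all genes, and DESeq2 called 0, 1 and 0 genes. Chil3 differed between tamoxifen+rapamycin and tamoxifen by −0.07 ± 0.23 and Camp by −0.05 ± 0.31 (SE). Retnlg had 434 and 577 CPM in the tamoxifen+rapamycin mice, 3246 and 517 CPM in the late rapamycin mice, and 484 and 699 CPM in the tamoxifen mice. Its late rapamycin minus tamoxifen difference of 1.57 ± 0.74 (SE, edgeR adjusted p = 0.786) had its high value in mouse 1 and was of the opposite sign on day 2.

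Olfm4 in immature cells had 290 and 229 CPM in the tamoxifen+rapamycin mice, 119 and 194 CPM in the late rapamycin mice, and 331 and 257 CPM in the tamoxifen mice. Late rapamycin was lowest on both days. The difference of late rapamycin from tamoxifen was −0.83 ± 0.25 (SE, edgeR adjusted p = 0.786). Ly6g had 675 and 514 CPM, 156 and 520.5 CPM, and 478 and 550 CPM in the same order, so it was low in late rapamycin mouse 1 alone.

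**Figure D4:**
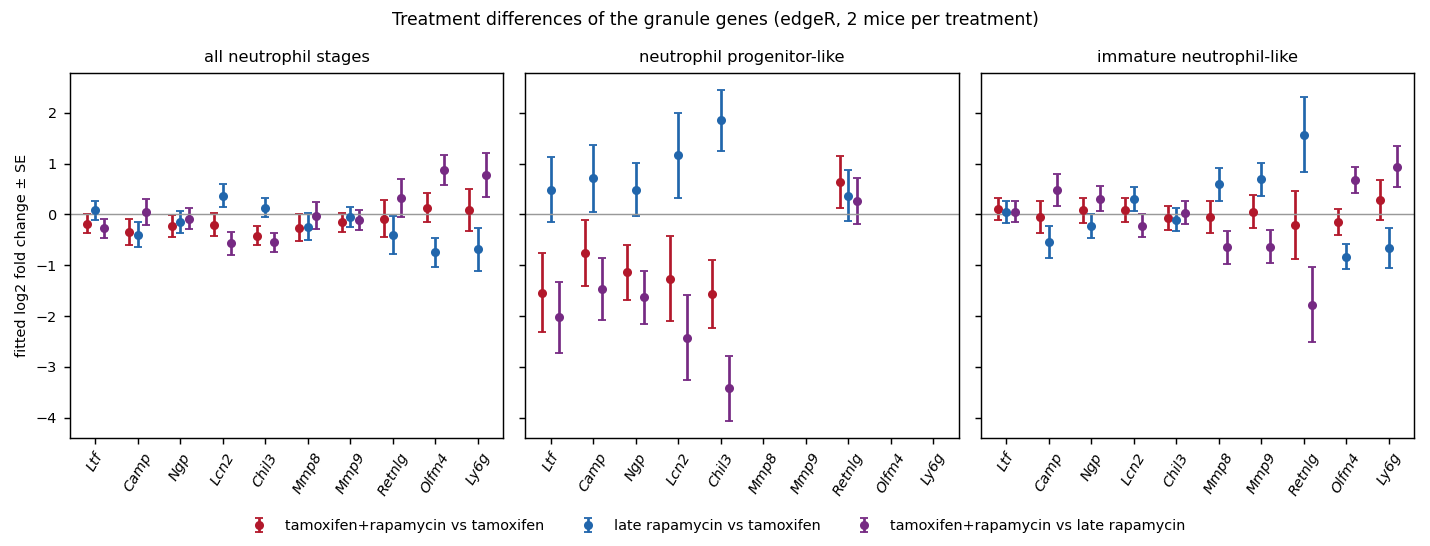
Log2 differences between treatments for each gene tested (edgeR estimate ± SE) in pooled neutrophil stages, progenitor-like and immature cells, for 3 comparisons of 2 mice with 2 mice. None passed the adjusted threshold, and the largest was −3.42 for Chil3 in progenitor-like cells between tamoxifen+rapamycin and late rapamycin.

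Leaving out late rapamycin mouse 1 brought calls in immature cells too, of small size. Between tamoxifen+rapamycin and tamoxifen Ngp was called higher at 0.08 ± 0.02 (SE, edgeR adjusted p = 0.0324), where 0.380% of all genes were. For tamoxifen+rapamycin against late rapamycin, Chil3 at −0.22 ± 0.05 was called (edgeR adjusted p = 0.00614), where 0.0633% of all genes were called lower. Leaving out single-mouse clusters, which removes cluster 10, gave Ngp (0.09 ± 0.02) and Ltf (0.12 ± 0.03) higher in tamoxifen+rapamycin than in tamoxifen, where 0.345% of all genes were (edgeR adjusted p = 0.00639 and 0.0280). It gave Chil3 (−0.21 ± 0.05) lower in tamoxifen+rapamycin than in late rapamycin, where 0.0511% were (edgeR adjusted p = 0.0131). In these fits late rapamycin had 1 mouse, which is assumed to vary like the others.

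Of the 10 genes, 6 passed the filter on low counts in progenitor-like cells: Ltf, Camp, Ngp, Lcn2, Chil3 and Retnlg. None was called. The share of all 9373 genes called was 0.0% for tamoxifen+rapamycin against tamoxifen, 0.0213% for late rapamycin against tamoxifen and 0.0% for tamoxifen+rapamycin against late rapamycin. Unadjusted p was under 0.05 for 1, 1 and 5 of the 6 genes and for 167, 667 and 648 of all genes, and DESeq2 called 1, 6 and 2 genes, none among the 10.

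Chil3 in progenitor-like cells had 9.003 and 38.1 CPM in the tamoxifen+rapamycin mice, 221 and 152 CPM in the late rapamycin mice, and 20.1 and 127 CPM in the tamoxifen mice. On each day tamoxifen+rapamycin was lowest and late rapamycin highest. Tamoxifen+rapamycin minus late rapamycin was −3.42 ± 0.65 (SE, edgeR adjusted p = 0.515), the smallest p of the 10 genes in any class. Lcn2 (−2.42 ± 0.83), Ltf (−2.03 ± 0.69), Ngp (−1.63 ± 0.52) and Camp (−1.47 ± 0.61) had the same sign (edgeR adjusted p between 0.675 and 0.716), and Retnlg did not (0.27 ± 0.45). Ltf rested on 5.83 and 4.44 CPM in tamoxifen+rapamycin, against 32.7 and 4.91 CPM in late rapamycin, and all but that of late rapamycin mouse 1 were within or below the HSC-like range of 5.72 to 14.1 CPM.

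In that comparison Chil3 was called lower whichever mouse was left out, at −5.04 to −1.88. Without tamoxifen+rapamycin mouse 1, 3 of the 6 genes were called lower (0.0414% of all genes), and without mouse 2, 5 of 6 (0.497%). Without late rapamycin mouse 1 Chil3 alone was called (0.0827%), and without mouse 2, 5 of 6 (14.4%). Without tamoxifen mouse 1 or 2, 5 of 6 were called lower (0.336% and 0.358%). Without the filter on low counts, with all mice, 5 of the 10 genes then tested were called lower (0.442%). The fits that leave out 1 mouse share most of their mice and are not independent of each other. The group that lost a mouse then has 1, which is assumed to vary like the others.

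Against tamoxifen the progenitor calls depended on the tamoxifen mice, whose Camp was 71.8 and 2355 CPM. Without tamoxifen mouse 1, 5 of the 6 genes were called lower in tamoxifen+rapamycin (0.122% of all genes), but without mouse 2 Camp was called higher at 1.42 ± 0.34 (edgeR adjusted p = 0.0394, with 0.0409% of all genes called higher). Without late rapamycin mouse 1, Lcn2, Chil3 and Ngp were called lower (0.238%), and without tamoxifen+rapamycin mouse 2, Lcn2 and Chil3 (0.0621%). For late rapamycin against tamoxifen, Chil3 was called higher without tamoxifen+rapamycin mouse 1 (0.176%), Chil3 and Camp without its mouse 2 (0.259%), and 4 of 6 genes without tamoxifen mouse 2 (0.542%). Without late rapamycin mouse 1, Lcn2 was called lower at −1.41 ± 0.28 (edgeR adjusted p = 0.00725), where 0.134% of all genes were, against 1.16 ± 0.84 with all mice.

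When late rapamycin mouse 2 was left out, late rapamycin stood for mouse 1 alone and calls were wide. Against tamoxifen, 6 of the 10 genes were called in pooled stages (1 higher, 5 lower, with 26.8% of all genes called), 9 in immature cells (4 higher, 5 lower, 22.1%), and 5 of 6 in progenitor-like cells (all higher, with 13.8% of all genes called higher). For tamoxifen+rapamycin against late rapamycin the counts were 7 of 10 in pooled stages (5 higher, 2 lower, 23.0%) and 10 of 10 in immature cells (6 higher, 4 lower, 21.4%). Tamoxifen+rapamycin against tamoxifen then had Chil3 and Camp called lower in pooled stages, where 0.666% of all genes were, Ltf called higher in immature cells, where 0.337% were, and 4 of 6 genes called lower in progenitor-like cells, where 0.409% were. The calls against late rapamycin compare 1 mouse with the others.

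Without the filter on low counts, and with all mice, further genes of the 10 were called by edgeR. In progenitor-like cells Lcn2, Chil3 and Ngp were lower in tamoxifen+rapamycin than in tamoxifen, where 0.0707% of all genes were. Lcn2, Chil3 and Camp were higher there in late rapamycin than in tamoxifen, where 0.442% were. In immature cells Olfm4 (−0.80) and Retnlg (1.61) differed between late rapamycin and tamoxifen, where 1.51% of all genes were called, and Ly6g (0.89) and Retnlg (−1.84) between tamoxifen+rapamycin and late rapamycin, where 1.37% were. In pooled stages Olfm4 was higher in tamoxifen+rapamycin than in late rapamycin (0.84 ± 0.23, SE, adjusted p = 0.0329), where 0.428% were.

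In HSC-like cells 6 of the 10 genes passed the filter and none was called. The share of all 11292 genes called was 0.124% for tamoxifen+rapamycin against tamoxifen, 0.283% for late rapamycin against tamoxifen and 0.301% for tamoxifen+rapamycin against late rapamycin. Of the 6 genes 0, 0 and 0 had an unadjusted p under 0.05, as had 534, 797 and 1140 of all genes, and DESeq2 called 3, 12 and 8 genes. The smallest p was that of Ngp, with 0.37 ± 0.24 between tamoxifen+rapamycin and late rapamycin (SE, edgeR adjusted p = 0.654). All levels behind it lay between 15.3 and 50.8 CPM, the background range described above.

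Of 3 related lists, which were chosen with earlier results of these data known, 1 gene was called in 1 comparison. Prtn3, the primary granule protease proteinase 3, was higher in HSC-like cells of tamoxifen+rapamycin than of late rapamycin (1.15 ± 0.20, SE, edgeR adjusted p = 0.0250). Of 31 other granule genes 29 were tested in pooled stages, 28 in immature, 22 in progenitor-like and 14 in HSC-like cells. Of 12 primary granule genes 12, 11, 12 and 12 were tested, and of 18 regulators of granulocyte formation 17, 14, 16 and 15. The list members with the smallest p in the neutrophil classes included Ctsc, the activator of the primary granule proteases, which differed by 1.13 ± 0.26 in pooled stages between late rapamycin and tamoxifen (edgeR adjusted p = 0.805). Lrg1 differed by −2.21 ± 0.56 in progenitor-like cells between tamoxifen+rapamycin and late rapamycin (edgeR adjusted p = 0.675). Cebpb, which drives granulocyte production under stress, differed by 0.87 ± 0.31 in progenitor-like cells between late rapamycin and tamoxifen (edgeR adjusted p = 0.688). Mcemp1, a membrane protein gene of granule-forming myeloid cells, differed by −0.64 ± 0.18 and the transcription factor gene Klf5 by −0.62 ± 0.19 in pooled stages between tamoxifen+rapamycin and late rapamycin (edgeR adjusted p = 0.767 and 0.771). Without clusters of a single mouse these 2 values were 0.50 and 0.48.

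The median log2 difference of the other granule genes in progenitor-like cells was −0.34 for tamoxifen+rapamycin against tamoxifen, 0.44 for late rapamycin against tamoxifen and −0.72 for tamoxifen+rapamycin against late rapamycin. For all genes the medians in these cells were 0.00, −0.01 and −0.00. The 6 of the 10 genes tested there had medians of −1.20, 0.60 and −1.83. In immature cells the medians of the 10 genes were 0.00, −0.03 and 0.05.

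In a sum over all cells, fewer cells of a type and less RNA per cell cannot be told apart. The 10 genes took 0.732% and 0.716% of all UMIs in the tamoxifen+rapamycin mice, 1.78% and 0.842% in the late rapamycin mice, and 0.670% and 0.829% in the tamoxifen mice. Late rapamycin mouse 1 was highest and the other 5 mice lay between 0.670% and 0.842%. Tamoxifen+rapamycin had 0.724% ± 0.0111 and tamoxifen 0.750% ± 0.112 (SD, n = 2 each), a difference of −0.0256 points (exact two-sided permutation p = 1) that was 0.0615 on day 1 and −0.113 on day 2. Late rapamycin had 1.31% ± 0.665 (SD, n = 2), 0.562 points above tamoxifen (exact permutation p = 0.333, which no comparison of 2 with 2 mice can go below), with gaps of 1.11 and 0.0130 on days 1 and 2. Tamoxifen+rapamycin minus late rapamycin was −0.588 points (exact permutation p = 0.333), from gaps of −1.05 and −0.126 on those days.

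Immature cells made up 4.75% and 4.64% of cells in the tamoxifen+rapamycin mice, 23.8% and 5.81% in the late rapamycin mice, and 4.70% and 5.55% in the tamoxifen mice. Mature cells made up 6.72% and 7.04%, 0.0310% and 10.6%, and 5.73% and 7.88% in the same order. Late rapamycin mouse 1 had few cells in the mature class beside many counted as immature, nearly all in cluster 10. Cxcr2, Stfa1, Camp and Ngp of cluster 10 were nearer to those of mature cells or step 3. Elane (788 CPM), Mki67 (899 CPM), Top2a (522 CPM) and Il1b (8.69 CPM) were nearer to those of immature cells. The split of this mouse between the classes is therefore uncertain. Progenitor-like cells made up 3.54% ± 1.21 in tamoxifen+rapamycin and 2.73% ± 1.12 in tamoxifen (SD, n = 2 each, exact permutation p = 0.667). Tamoxifen+rapamycin was higher on both days, by 0.872 and 0.749 points. The spread between the days was larger, and the permutation test, which does not pair the mice of a day, counts it. Late rapamycin minus tamoxifen was 8.10 and 0.259 points for progenitor-like cells (exact permutation p = 0.667), 19.1 and 0.263 points for immature cells (exact permutation p = 0.333) and −5.70 and 2.76 points for mature cells (exact permutation p = 1) on days 1 and 2. Without late rapamycin mouse 1 the difference in progenitor-like share was −0.535 points and that in mature share 3.84 points.

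Tamoxifen+rapamycin minus tamoxifen was 0.0452 and −0.911 points for immature cells (exact permutation p = 0.667) and 0.998 and −0.844 points for mature cells (exact permutation p = 1) on days 1 and 2. Tamoxifen+rapamycin minus late rapamycin was −7.23 and 0.491 points for progenitor-like cells (exact permutation p = 1), −19.02 and −1.17 points for immature cells (exact permutation p = 0.333) and 6.69 and −3.61 points for mature cells (exact permutation p = 1). None of these shares can be told apart from the mix of sorted and whole marrow loaded for each mouse.

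**Figure D5:**
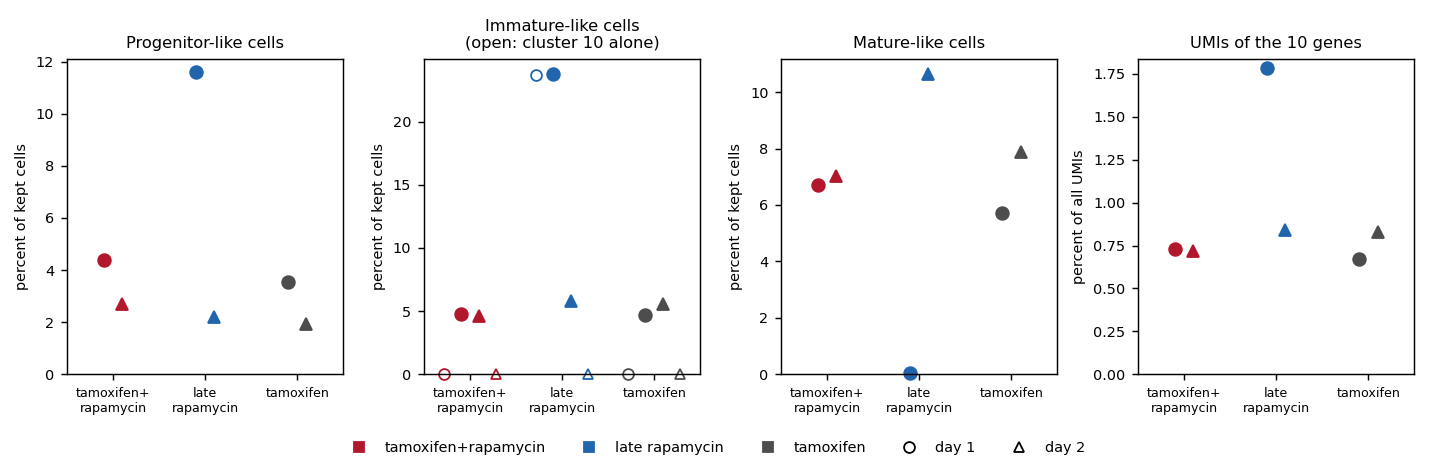
Share of kept cells in each neutrophil stage and share of all UMIs taken by the 10 genes (percent), with 1 point per mouse by treatment and the day marked; open points give cluster 10 alone. Late rapamycin mouse 1 has 23.8% immature cells and 1.78% of UMIs from the 10 genes, above the 5 other mice.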

How the data were processed

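The authors deposited raw UMI counts, 1 matrix per day with genes and hashtags, and a hashtag table. The submitters' processing notes give Cell Ranger 7.0.0 and mm10, whereas version 8.0.1 stands in the matrices, per the file headers. Whether intronic reads were counted is not given in the sources used here. Day 1 had 25058 barcodes and 113535036 gene UMIs, day 2 had 21409 barcodes and 115505329 gene UMIs. After a centred log ratio transform, hashtags above the 0.999 quantile of background were taken as present, and the leading one needed 20 UMIs. Exactly 1 hashtag was found on 21915 and 19022 barcodes, more than 1 on 3005 and 2279, and none on 138 and 108.

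Kept cells had 500 genes or more, 1000 UMIs or more and no more than 10% mitochondrial UMIs. Doublets within a mouse share a hashtag. Their expected number (1467 and 1104) was therefore taken out, starting from cells with the most multi-hashtag barcodes among 50 neighbours. Clustering ran in scanpy 1.11.5 (Python 3.11.15, anndata 0.12.19, leidenalg 0.10.2) on 30 principal components of 2000 variable genes, from which the 10 genes were removed, on an unweighted graph of 15 nearest neighbours at Leiden resolution 1, after removing day means. Clusterings with 30 neighbours and at resolution 2, and the stage levels under other settings, were chosen after seeing the data. The finer clusters of resolution 2 that held most immature and mature cells, ordered by Cxcr2, gave steps 1 to 4. A type's name required 50% or more of its detected markers, and no fewer than 3, at 2-fold or more, and 10 leading genes free of another type's markers. Detected means present in 10% or more of cells. Positions come from the GENCODE annotation of GRCm38, which held 32235 of 32285 identifiers.

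Levels are CPM, UMIs scaled to a class and mouse total of 1e+06. Counts summed per class and mouse entered edgeR 4.0.16 in R 4.3.3 where every mouse had 50 cells or more (quasi-likelihood test, TMM, filterByExpr, two-sided, Benjamini-Hochberg threshold 0.05). The fit was also run on simulated counts. These had no day effect and no outlying mouse, so they do not show how the fit performs in these data. Mature cells were not tested, since late rapamycin mouse 1 had 2. Day was a block because the labels tie 1 mouse of each treatment to a shared run. Shares were compared by exact permutation tests, whose smallest p for 2 against 2 mice is 0.333. These tests do not pair the mice of a day. The edgeR p-values rest on the spread left after treatment and day, with 1 estimate shared by the treatments and only 2 mice in each. Thinned values use 1000 UMIs per cell. Alternatives were DESeq2 1.42.0, no count filter, no block, each mouse left out, library sizes without the 10 genes, leaving out clusters with 90% or more of their cells from 1 mouse, clustering with the 10 genes, stricter filters (1000 genes, 2000 UMIs, 5% mitochondrial) and doublets kept.

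The 10 genes and the gene lists were chosen with earlier results of these data known. The genes named are the 10, the list members with the smallest p (up to 4 per list and class), the 10 genes most like the sum of the 10, and close paralogs.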

Additional observations from a re-analysis of the deposited data

Results flagged for a closer look

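Some differences between treatments had one sign on both days in progenitor-like cells and the other sign on both days in immature cells, in log2(CPM + 1) for days 1 and 2. The difference between the stages was not tested for any of them. For tamoxifen+rapamycin minus tamoxifen, Ltf was −0.70 and −1.91 in progenitor-like cells and 0.07 and 0.09 in immature cells, a mean gap of −1.38. The progenitor values of Ltf behind it were 5.83 and 4.44 CPM in tamoxifen+rapamycin and 10.07 and 19.4 CPM in tamoxifen, from 7 to 21 UMIs each, near the HSC-like range of 5.72 to 14.1 CPM. Retnlg was 0.16 and 0.91 in progenitor-like cells and −0.16 and −0.28 in immature cells in the same comparison, a gap of 0.75. The progenitor values of Retnlg were 6.88 and 16.5 CPM in tamoxifen+rapamycin and 6.04 and 8.31 CPM in tamoxifen. All but the 16.5 CPM, which came from 26 UMIs, lay within the HSC-like range of 5.05 to 11.4 CPM. For late rapamycin minus tamoxifen, Ly6g was 0.21 and 1.40 in progenitor-like cells, where no mouse had more than 1.64 CPM, and −1.61 and −0.08 in immature cells, a gap of 1.65. For tamoxifen+rapamycin minus late rapamycin, Ngp was −1.60 and −1.36 in progenitor-like cells and 0.74 and 0.03 in immature cells, a gap of −1.87. The immature values of the last 2 on day 1 rest on cluster 10.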

How the results depend on the processing

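Of 612 values recomputed under another setting, 406 were counted as the same, 132 as moved, 48 as newly passing the threshold, 0 as losing it and 26 as changed in sign. Tested values were the same if they kept their direction and their side of the threshold, and counts if they stayed within 1.5 times. Mature minus immature was the same if it shifted by less than its SD. For Olfm4 and Ly6g, whose means were below their SD, a turned sign there was counted as the same or as moved. Triplets of counts below follow the order tamoxifen+rapamycin against tamoxifen, late rapamycin against tamoxifen and tamoxifen+rapamycin against late rapamycin. The cause of each shift was not tested, except that leaving out clusters or mice leaves fewer cells or mice.

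Mature minus immature kept its sign for 8 of the 10 genes in each setting that gave a value. That of Olfm4 was −1.07 with 30 neighbours, −1.15 with the 10 genes among the variable genes, −0.64 with doublets kept and −0.095 without tamoxifen+rapamycin mouse 1, and that of Ly6g was −0.72, −0.76 and −0.62 in the first 3. Stricter cell filters gave no value, since they left 1 mouse with 50 cells of both stages. At resolution 2 progenitor-like cells reached 50 only in the 3 mice of day 1.

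Genes called in pooled neutrophil stages were 0, 1 and 0 with all mice and 24, 171 and 176 without the count filter. The second was 2 with DESeq2 and with the 10 genes among the variable genes, and 0 with stricter cell filters and without single-mouse clusters. In progenitor-like cells 0, 2 and 0 became 1, 6 and 2 with DESeq2 and 20, 146 and 154 without the filter, and the second was 0 with the 10 genes among the variable genes. In immature cells the counts of 0 became 5, 238 and 216 without the filter and 34, 13 and 12 without single-mouse clusters, and DESeq2 gave 1 in the second. Without the filter the median of all genes in immature cells was 0.12 and −0.15 in the last 2 comparisons. In HSC-like cells 14, 32 and 34 became 3, 12 and 8 with DESeq2, 66, 139 and 172 without the filter, and 9, 7 and 11 with stricter cell filters, while the 10 genes among the variable genes gave 19 in the second.

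Without the replicate block, calls were 0 in late rapamycin against tamoxifen in pooled stages and in progenitor-like cells, and 2, 2 and 4 in HSC-like cells. The unpaired fit moved no other count of calls by over 1.5 times.

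Leaving out 1 mouse at a time, calls ranged from 4 to 130, 9 to 2894 and 4 to 2487 in pooled stages, 7 to 57, 7 to 2458 and 5 to 2541 in progenitor-like cells, 0 to 43, 0 to 1774 and 1 to 1715 in immature cells, and 4 to 116, 5 to 260 and 19 to 417 in HSC-like cells. The differences ranged from −0.0445 to 1.67, −0.535 to 8.89 and −8.08 to 1.35 points in progenitor-like share and from −1.001 to 1.155, −6.77 to 3.84 and −3.76 to 6.85 points in mature share. The 10 genes' share of UMIs ranged from −0.105 to 0.0536 points for tamoxifen+rapamycin minus tamoxifen. Without tamoxifen+rapamycin mouse 2 the mature share differed from tamoxifen by −0.0802 points. For tamoxifen+rapamycin minus tamoxifen, Chil3 in progenitor-like cells ranged from −2.49 to 0.026 (highest without tamoxifen mouse 2), Ly6g in immature cells from −0.45 to 0.85 (lowest without tamoxifen+rapamycin mouse 1) and Retnlg in HSC-like cells from −0.47 to 0.94 (lowest without tamoxifen+rapamycin mouse 2). Ngp in HSC-like cells ranged from −0.55 to 0.22 for late rapamycin minus tamoxifen and from −0.13 to 0.64 for tamoxifen+rapamycin minus late rapamycin, with the turned sign without late rapamycin mouse 2.

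Without single-mouse clusters, late rapamycin minus tamoxifen was −2.14 points in immature share and −0.299 points in the 10 genes' UMIs, tamoxifen+rapamycin minus late rapamycin was 1.705 and 0.273 points, and the last comparison gave 0.50 for Mcemp1 and 0.48 for Klf5 in pooled stages. The differences in mature share were −0.0584, 0.2525 and −0.311 points with the 10 genes among the variable genes, and with stricter cell filters 0.313 points for late rapamycin minus tamoxifen and −0.246 points for tamoxifen+rapamycin minus late rapamycin. Stricter cell filters also gave −0.081 for Olfm4 in pooled stages between tamoxifen+rapamycin and late rapamycin, and the 10 genes among the variable genes gave −0.026 for Adam8 in immature cells between late rapamycin and tamoxifen. Low levels limit the progenitor-like values of Mmp8, Mmp9, Olfm4 and Ly6g, for which 14 to 40 UMIs were counted over all 6 mice.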
